A study of Mus musculus with 6 samples.

Results

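The insulin-like growth factor (IGF) family was followed in intestinal fibroblasts through 10 genes, taken by name from the 15238 genes of the deposited count table. They are the ligands Igf1 and Igf2, the receptors Igf1r and Igf2r, and the binding proteins Igfbp2, Igfbp3, Igfbp4, Igfbp5, Igfbp6 and Igfbp7. The cells were CD45-, EpCAM-, CD31- and podoplanin+, sorted after digestion of the gut from Balb/c pups 9 days old. Of the 6 libraries, 3 were wild-type (replicates 1, 3 and 4) and 3 carried DdblGata1 (replicates 4, 9 and 10), a deletion in a regulatory element of Gata1 that leaves the animals without eosinophils. The deletion is present in every cell of the animal, and the labels name no sex, litter or number of pups per library, so all p-values measure the spread between these libraries.

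IGF1 and IGF2 are secreted growth factors that signal through the receptor tyrosine kinase IGF1R to the PI3-kinase and MAP kinase pathways. IGF2R, also the cation-independent mannose 6-phosphate receptor, takes up IGF2 for breakdown in lysosomes and does not signal as a kinase. The binding proteins hold IGFs in the extracellular space, where proteases cleave some of them and set the ligand free. In the mouse Igf2 is expressed from the paternal and Igf2r from the maternal allele, and gut mesenchyme is known as a source of IGFs for the epithelium.

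The libraries held 28110454 to 31210800 estimated counts. Transcripts of Gata1 had 0 to 1 counts, so the genotype could not be checked in these cells. All 9 fibroblast markers examined were present, with Col3a1 at 24077 to 36011 TPM (a level per transcript length, scaled to the library), and the 5 eosinophil markers each averaged under 1 TPM, with Epx at 0 in every library. Epithelial markers summed to 645 TPM in wild-type replicate 1 and 142 to 241 TPM in the other libraries. The 6 smooth muscle markers summed to 13055, 12027 and 8269 TPM in wild-type libraries (replicates 1, 3 and 4). In DdblGata1 libraries (replicates 4, 9 and 10) they summed to 5814, 8868 and 6492 TPM, which overlapped the wild-type range. Each of the 6 was lower in DdblGata1 by its fitted log2 fold change (DdblGata1 minus wild-type, -0.80 to -0.45). The 9 immediate early genes summed to 3412 to 3608 TPM in wild-type and 5004 to 6178 TPM in DdblGata1 libraries, the 5 pericyte markers to 717 to 940.0 TPM and 559 to 602 TPM, and the 5 blood endothelial markers to 29.9 to 37.5 TPM and 55.0 to 76.5 TPM. These 3 sums did not overlap between genotypes, while those of the other marker lists examined did. Among the others were PDGFRA-high villus fibroblast markers (328 to 414 TPM in wild-type and 369 to 493 TPM in DdblGata1 libraries). CD81-positive trophocyte markers had 1347 to 1851 TPM and 1521 to 2071 TPM. Single markers of lists with overlapping sums could still separate, as in these examples. Dpp4 had 22.0 to 40.4 TPM in wild-type and 73.6 to 147 TPM in DdblGata1 libraries. In the same order, Cd55 had 89.3 to 123 and 194 to 250 TPM, and Thy1 121 to 166 and 279 to 529 TPM. Wt1 had 17.0 to 22.8 and 33.8 to 46.9 TPM. Foxl1 (2.09 to 3.22 and 0.418 to 2.05 TPM) and Des (589 to 846 and 414 to 543 TPM) went the other way. The part of any of these marker groups in the values below was not tested. The endothelial gap was that of Tek, singled out after its values were seen (11.1 to 21.0 TPM and 34.0 to 59.8 TPM). The 4 other endothelial markers summed to 14.8 to 18.9 TPM and 16.7 to 21.0 TPM, which overlapped. Most of the pericyte sum was Rgs5 (402 to 715 TPM over all libraries). Abcc9 overlapped between genotypes (90.4 to 106 TPM and 72.2 to 90.9 TPM), and Notch3 had a log2 fold change of 0.13. The log2 fold changes of the other pericyte markers were -0.62 to -0.38. In bulk RNA, fewer cells of a type and less RNA per cell cannot be told apart.

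Per length, Igf2 had the highest mean of the 10 genes over all 6 libraries, but not within the wild-type group. Its mean was 1840 ± 734 TPM (SD, n = 6), which ranked 43 among all genes of the table. Igfbp7 (1325 ± 211 TPM) and Igfbp4 (1275 ± 342 TPM) came next. In wild-type libraries the means of Igf2, Igfbp7 and Igfbp4 were 1289 ± 624, 1318 ± 123 and 1307 ± 251 TPM, and in DdblGata1 libraries 2391 ± 216, 1331 ± 310 and 1243 ± 476 TPM (SD, n = 3). Igf2 exceeded Igfbp7 in 4 of 6 libraries and Igfbp7 exceeded Igfbp4 in 3, so the order of these 3 genes did not hold across libraries. All 3 stood above the remaining genes in each library. Below them, Igfbp3 had 251 ± 73.1 TPM, Igfbp5 201 ± 43.5 TPM and Igfbp6 199 ± 56.1 TPM. Igfbp3 exceeded Igfbp5 in 5 of 6 libraries and Igfbp5 exceeded Igfbp6 in 4. Igfbp6 was above Igf1 (107 ± 32.7 TPM) in 6 of 6 libraries. Igf1 was above Igfbp2 (69.3 ± 19.2 TPM) in 4, and Igfbp2 above Igf2r (63.2 ± 14.9 TPM) in 3. Igf1r was the lowest member in every library, at 16.6 ± 3.77 TPM. Of the 9 neighbouring pairs in this order, 3 kept it in every library.

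**Figure D1:**
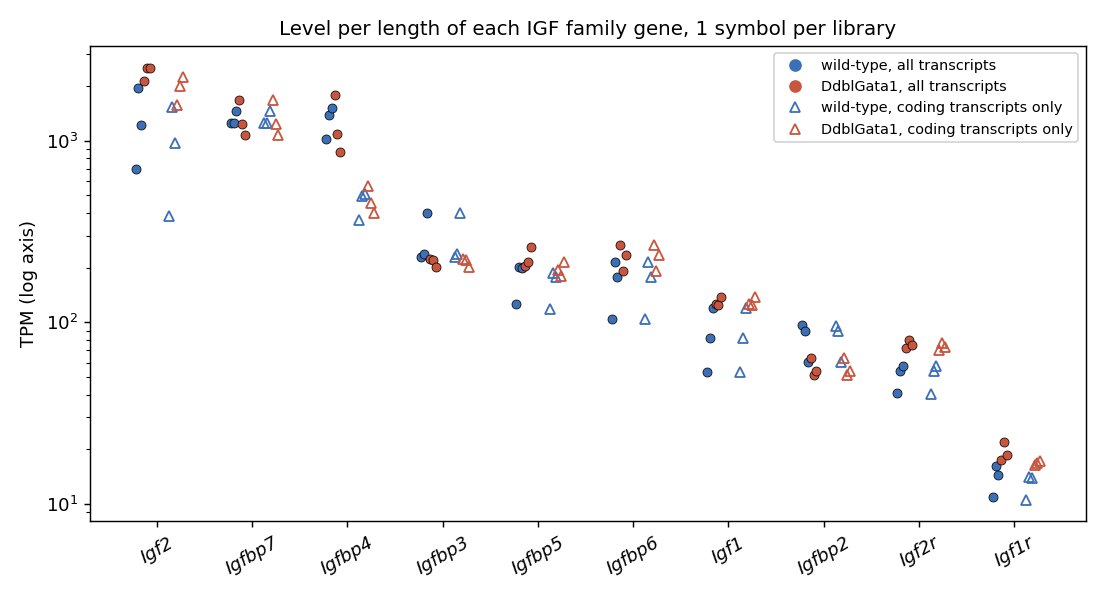
TPM of each gene on a log axis, 1 symbol per library, for all annotated transcripts (filled circles) and for protein-coding transcripts only (open triangles), with wild-type in blue and DdblGata1 in red. Igf2, Igfbp7 and Igfbp4 lie above the rest when all transcripts count, and Igfbp4 averages 464 TPM in coding transcripts alone.

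The level of Igfbp4 rests on short transcripts. Its coding transcript Igfbp4-201, 3831 bases long, took 79.1% to 86.6% of the gene's estimated counts. The processed transcripts Igfbp4-202 (799 bases) and Igfbp4-203 (785 bases) took 32.5% and 30.5% of the gene's TPM. In coding transcripts only, Igfbp4 averaged 464 TPM, with a range of 365 to 563. Igf2 averaged 1450 TPM on that scale and exceeded Igfbp7 in 3 of 6 libraries. The deposited gene counts are length-scaled, and for these genes they differed from the plain sum of transcript counts in both directions. The ratio of deposited to plain count was 0.829 to 1.15 for Igfbp4 (lowest in DdblGata1 replicate 10, highest in DdblGata1 replicate 4) and 0.921 to 1.12 for Igf2 (lowest in DdblGata1 replicate 9, highest in wild-type replicate 1).

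The comparison of DdblGata1 with wild-type libraries asks how these fibroblast genes differ when eosinophils are lacking. In counts scaled for library size, both ligands and both receptors had higher means in DdblGata1 libraries, and Igfbp2, Igfbp3, Igfbp4 and Igfbp7 lower ones. None of the 10 genes passed the test. By edgeR's quasi-likelihood test 0 of 10 members and 0 of 15238 genes (0.0%) were called at an adjusted p of 0.05. The members' adjusted p-values were 0.444 to 0.903. By unadjusted p under 0.05 in edgeR, 1 member was higher (Igf2r) and 2 were lower (Igfbp2 and Igfbp3), against 6.03% and 4.23% of all genes in those directions and 10.3% in either. DESeq2 called 0 members (adjusted p 0.200 to 0.912) and 1.4% of all genes. In 3 of 10 members all libraries of one genotype lay on one side of the other, 2 higher and 1 lower, beside 16.3% of all genes (8.98% higher and 7.34% lower). The fitted value was higher in 6 members and lower in 4, against 49.3% and 50.7% of all genes. Log2 fold changes are given as DdblGata1 minus wild-type, and their median was 0.35 over the members and -0.0066 over all genes. Without sign the medians were 0.45 and 0.25.

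Igf2 (ENSMUSG00000048583, chromosome 7, 142650766 to 142666816, GRCm38) is the main IGF of fetal tissue. It had 1052, 3016 and 1747 CPM (counts relative to the scaled library total) in the wild-type group (replicates 1, 3 and 4). The DdblGata1 group (replicates 4, 9 and 10) had 2963, 3486 and 3678 CPM. The wild-type libraries were far apart, and replicate 3 lay above DdblGata1 replicate 4, so the groups overlapped. The means were 1938 ± 996 and 3376 ± 370 CPM (SD, n = 3), with a log2 fold change of 0.80 ± 0.35 (SE; edgeR adjusted p 0.486). That value was 1.27 without wild-type replicate 3 and 0.48 without wild-type replicate 1. Without wild-type replicate 3, DESeq2 called Igf2 higher (adjusted p 0.0014), as it did 1.57% of genes in either direction.

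**Figure D2:**
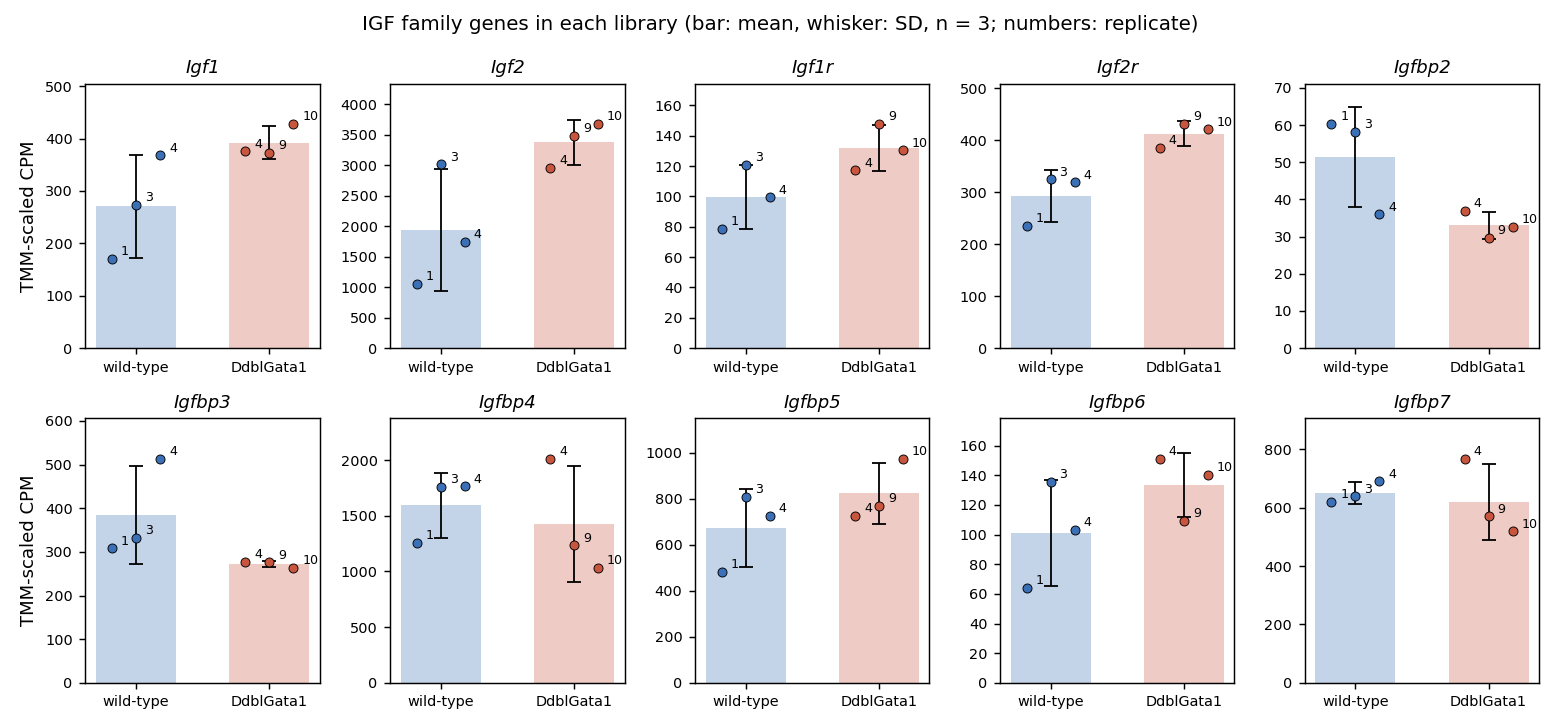
TMM-scaled CPM of the 10 genes in each library, 1 panel per gene with its own axis from 0; points are libraries numbered by replicate, bars are group means and whiskers the SD (n = 3). Igf1 and Igf2r are higher and Igfbp3 is lower in all DdblGata1 than in all wild-type libraries, and wild-type replicate 1 is the lowest library for Igf1, Igf2, both receptors, Igfbp5 and Igfbp6.

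Igf2 has several first exons, each with a promoter of its own, which join the same coding exons. RefSeq promoter windows (GRCm38.p6) were found for all 10 genes, 4 of them for Igf2. The bases just upstream of 3 annotated Igf2 starts are shown, since the counts differed widely between these starts. All are on the minus strand and written 5′ to 3′. Capitals mark matches on either strand to GGGCGG or to CCAAT, or to TATAAA, and the matches do not overlap.
Igf2-201, nearest to the coding exons, chr7:142657497-142657746: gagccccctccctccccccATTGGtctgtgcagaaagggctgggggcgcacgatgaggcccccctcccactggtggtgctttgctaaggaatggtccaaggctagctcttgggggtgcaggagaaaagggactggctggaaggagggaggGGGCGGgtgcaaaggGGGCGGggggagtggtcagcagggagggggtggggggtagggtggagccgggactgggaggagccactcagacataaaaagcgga
Igf2-204, further upstream, chr7:142661306-142661521: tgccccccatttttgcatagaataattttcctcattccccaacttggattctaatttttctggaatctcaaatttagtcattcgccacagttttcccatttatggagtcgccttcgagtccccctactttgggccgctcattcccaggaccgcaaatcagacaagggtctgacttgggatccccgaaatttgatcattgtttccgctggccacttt
Igf2-203, farthest upstream, chr7:142666817-142667066: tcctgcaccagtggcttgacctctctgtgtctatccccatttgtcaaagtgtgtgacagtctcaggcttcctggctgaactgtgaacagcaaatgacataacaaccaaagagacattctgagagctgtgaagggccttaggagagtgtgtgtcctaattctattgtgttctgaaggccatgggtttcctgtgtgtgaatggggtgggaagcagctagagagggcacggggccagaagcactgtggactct
The window of Igf2-201 was 66.0% G and C, with 2 matches to GGGCGG and 1 to CCAAT on the reverse strand. Of 32851 RefSeq windows cut to 250 bases, 32.7% held GGGCGG, 33.8% CCAAT and 12.4% TATAAA. The window of Igf2-204 (216 bases, 45.8% G and C) and that of Igf2-203 (50.8%) held none of the 3 strings, and 31.6%, 30.8% and 10.8% of windows cut to 216 bases held them in the same order. The remaining Igf2 window, chr7:142658755-142659054, is not shown. Its first 250 bases were 68.8% G and C, with 1 match to GGGCGG and none to the other strings.

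Most Igf2 counts with an assigned first exon belonged to the start nearest the coding exons. Igf2-201 with Igf2-202 took 79.2%, 81.1% and 68.7% of them in the wild-type group. In the DdblGata1 group the share was 67.5%, 83.6% and 90.0%, so the groups overlapped. The Igf2-204 start took 11.9%, 7.88% and 20.0% in the wild-type and 20.9%, 8.13% and 4.31% in the DdblGata1 group. The share of Igf2-204 was thus largest in wild-type replicate 4 and in DdblGata1 replicate 4, which no label links beyond the number. Igf2-205, which starts between these 2, took 5.72% to 11.4%. The farthest starts, Igf2-203 and Igf2-207, had 96.2 estimated counts in DdblGata1 replicate 4 and 0 in the other libraries. Igf2-208 (958 bases, a processed transcript) and Igf2-209 (462 bases) start inside the gene. They had 7.0% and 1.4% of its counts but 21.2% and 26.1% of its TPM, and Igf2-208 reached 45.0% of the TPM in wild-type replicate 1. These shares are kallisto's estimates over exons that the transcripts share. The antisense gene Igf2os overlaps the Igf2-204 start and was absent from the transcript index, as were H19 and Airn, and no source used here states whether counting used the strand. An overlapping read-through gene, Gm49394, had 0 to 15.6 estimated counts.

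**Figure D3:**
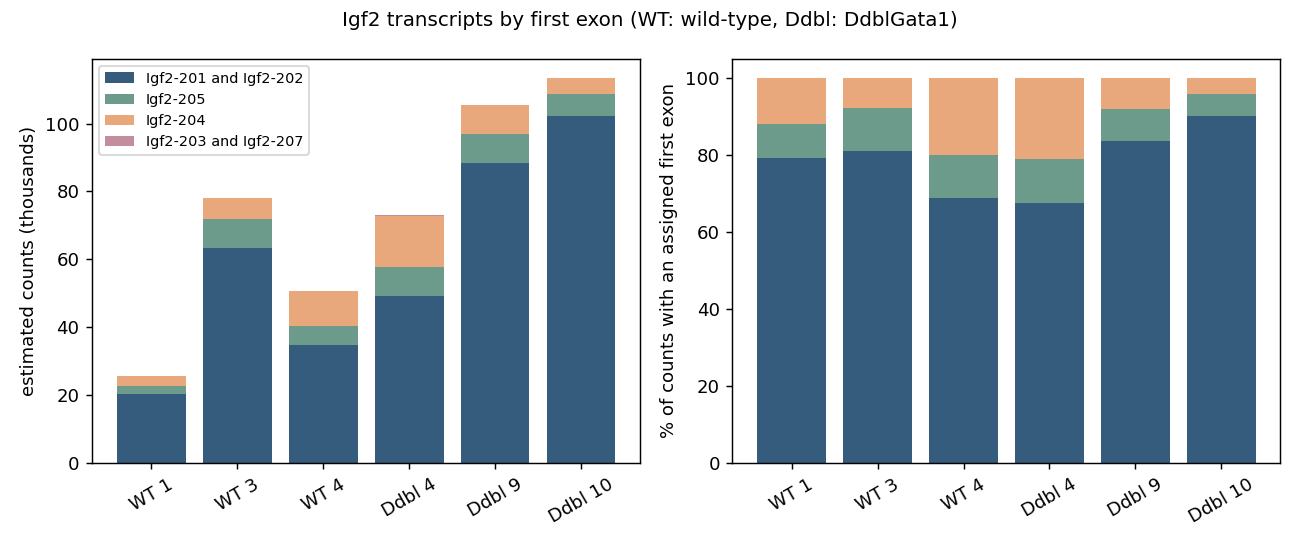
Estimated counts of Igf2 transcripts by first exon in each library, not scaled for depth (left) and as percent of the counts with an assigned first exon (right). The start of Igf2-201 and Igf2-202 takes 67.5% to 90.0%. The Igf2-204 start is largest in wild-type replicate 4 (20.0%) and DdblGata1 replicate 4 (20.9%).

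Igf1 (ENSMUSG00000020053, chromosome 10, 87858265 to 87937042) encodes the ligand that growth hormone induces in many tissues after birth. It had 170.3, 273 and 368 CPM in the wild-type and 376, 373 and 428 CPM in the DdblGata1 group, with replicates ordered as before. The groups did not overlap, but wild-type replicate 4 came close to the lowest DdblGata1 library, and wild-type replicate 1 was lowest. The log2 fold change was 0.54 ± 0.26 (SE; edgeR adjusted p 0.510). Without wild-type replicate 1 it was 0.27, and without wild-type replicate 4 it was 0.82. One transcript, Igf1-202 of 7052 bases, carried 97.7% to 99.0% of the gene's counts.

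The receptors had higher means as well. Igf2r (ENSMUSG00000023830, chromosome 17, 12682406 to 12769664) had 236, 325 and 319 CPM in the wild-type and 386, 432 and 422 CPM in the DdblGata1 group. Each DdblGata1 library lay above each wild-type library. Its log2 fold change of 0.49 ± 0.17 (SE; edgeR adjusted p 0.444) stayed between 0.33 and 0.57 when single libraries were left out. Igf1r (ENSMUSG00000005533, chromosome 7, 67952827 to 68233668) had 78.7, 121 and 99.5 CPM in the wild-type and 117, 148 and 131 CPM in the DdblGata1 group. The groups overlapped through wild-type replicate 3. Its log2 fold change was 0.40 ± 0.19 (adjusted p 0.498), and 0.23 without wild-type replicate 1. Per length, Igf2r exceeded Igf1r 3.36-fold to 4.10-fold in every library.

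Of the 6 binding proteins, 4 had lower means in DdblGata1 libraries, and Igfbp2 and Igfbp3 had the fold changes farthest below 0. Igfbp3 (ENSMUSG00000020427, chromosome 11, 7206086 to 7213923), the main IGF carrier of serum, had 308, 332 and 513 CPM in the wild-type and 277, 276 and 263 CPM in the DdblGata1 group. All DdblGata1 libraries were below all wild-type ones and close together, and wild-type replicate 4 was well above the others. Its log2 fold change was -0.50 ± 0.21 (SE; edgeR adjusted p 0.483), and -0.24 without wild-type replicate 4. Igfbp2 (ENSMUSG00000039323, chromosome 1, 72824503 to 72852474), which binds IGF2 well and can bind integrins, had 60.3, 58.1 and 36.0 CPM in the wild-type and 36.9, 29.7 and 32.7 CPM in the DdblGata1 group. Wild-type replicate 4 was as low as the DdblGata1 libraries, so the groups overlapped. Its log2 fold change was -0.64 ± 0.22 (adjusted p 0.444). Without wild-type replicate 4 it was -0.84, and DESeq2 then called Igfbp2 lower (adjusted p 0.0185), as it did 1.08% of genes in either direction. Igfbp2-201 carried 60.8% to 68.6% of the gene's counts and Igfbp2-202, with another first exon, nearly all others.

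Igfbp5 lies 5457 bases from Igfbp2 on chromosome 1 (ENSMUSG00000026185, 72857932 to 72874884), and the genes point towards each other. Igfbp5 binds matrix as well as IGFs. Its values were 484, 808 and 727 CPM in the wild-type and 726, 771 and 975 CPM in the DdblGata1 group, with a log2 fold change of 0.29 ± 0.23 (SE; edgeR adjusted p 0.646). Wild-type replicate 1 was low and DdblGata1 replicate 10 high, and the other 4 libraries were close together. The value was 0.077 when wild-type replicate 1 was left out, 0.44 when wild-type replicate 3 was, and 0.14 when DdblGata1 replicate 10 was. The ratio of Igfbp5 to Igfbp2 in TPM was 1.30, 2.26 and 3.27 in the wild-type and 3.19, 4.21 and 4.84 in the DdblGata1 group. The processed transcript Igfbp5-202 had 4.3%, 5.2% and 6.7% of the gene's counts in the wild-type and 3.0%, 11.3% and 12.6% in the DdblGata1 group.

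Igfbp6 (ENSMUSG00000023046, chromosome 15, 102144362 to 102149511) prefers IGF2 over IGF1. It had 64.2, 136 and 103 CPM in the wild-type and 151, 109 and 140.2 CPM in the DdblGata1 group, which overlapped (log2 fold change 0.40 ± 0.27, SE; edgeR adjusted p 0.593). That value was 0.14 without wild-type replicate 1 and 0.67 without wild-type replicate 3.

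Igfbp4 and Igfbp7 were the binding proteins with the smallest fitted differences. Igfbp4 (ENSMUSG00000017493, chromosome 11, 99041244 to 99054392), a substrate of the protease pappalysin, had 1259, 1759 and 1766 CPM in the wild-type and 2012, 1236 and 1031 CPM in the DdblGata1 group. Igfbp7 (ENSMUSG00000036256, chromosome 5, 77349240 to 77408041), which binds IGFs weakly and is found in vessel walls, had 619.6, 639 and 690.5 CPM in the wild-type and 768, 570.0 and 519 CPM in the DdblGata1 group. In both genes DdblGata1 replicate 4 was the highest and DdblGata1 replicate 10 the lowest of all 6 libraries. Their log2 fold changes were -0.16 ± 0.28 and -0.070 ± 0.19 (SE; edgeR adjusted p 0.843 and 0.903). Without DdblGata1 replicate 10 they were 0.011 and 0.028, and without DdblGata1 replicate 4 they were -0.49 and -0.25.

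**Figure D4:**
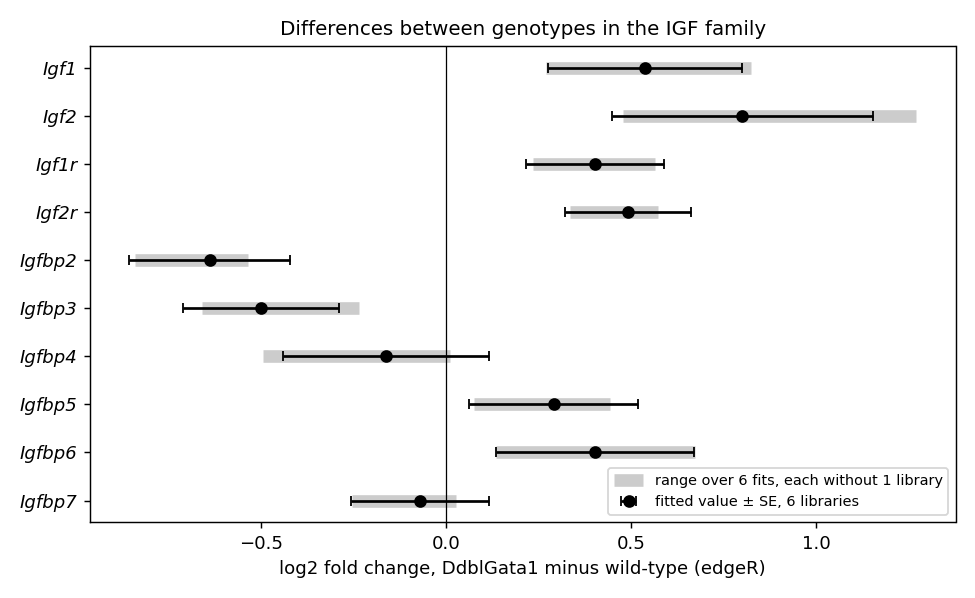
Fitted log2 fold change (DdblGata1 minus wild-type) of the 10 genes with its SE (black) and the range over 6 fits that each leave out 1 library (grey). The ligands, the receptors, Igfbp5 and Igfbp6 lie above 0, Igfbp2 and Igfbp3 below it, and the grey ranges of Igfbp4 and Igfbp7 cross it.

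The spread between libraries differed in size from gene to gene. The coefficient of variation of Igf2 was 51.4% in the wild-type and 11% in the DdblGata1 group, that of Igf1 was 36.5% and 7.83%, and that of Igfbp3 was 29.2% and 2.77%. Igfbp4 and Igfbp7 went the other way, with 18.2% and 36.3% for Igfbp4 and 5.65% and 21.2% for Igfbp7. With 3 libraries a group these are descriptions. Wild-type replicate 1 was the lowest library for 6 members, Igf1, Igf2, Igf1r, Igf2r, Igfbp5 and Igfbp6, and it was also the library with the most epithelial and smooth muscle marker RNA. It had the most leukocyte (132 TPM, others 31.0 to 64.5) and pericyte marker RNA (940.0 TPM, others 559 to 724) as well. Its fibroblast marker sum was the lowest (47758 TPM, others 57504 to 70223). The part of these differences in marker RNA in the values was not tested. In edgeR without wild-type replicate 1, none of the 6 genes changed direction, but the log2 fold changes of all 6 became smaller. They went from 0.54 to 0.27 for Igf1, from 0.80 to 0.48 for Igf2 and from 0.40 to 0.23 for Igf1r. Those of Igf2r, Igfbp5 and Igfbp6 went from 0.49 to 0.33, from 0.29 to 0.077 and from 0.40 to 0.14.

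The balance of binding protein to ligand RNA was computed per library from summed TPM. The 6 binding proteins summed to 2830, 3375 and 3804 TPM in the wild-type and 4213, 2999 and 2698 TPM in the DdblGata1 group. Their ratio to Igf1 plus Igf2 was 3.75, 1.67 and 2.83 in the wild-type and 1.86, 1.14 and 1.01 in the DdblGata1 group, and the groups overlapped. In coding transcripts only it was 4.92, 1.53 and 2.56 against 1.76, 1.10 and 0.920, which overlapped too. Igf2 exceeded Igf1 by 10.2-fold to 23.7-fold in TPM, and by 7.29-fold to 18.7-fold in coding transcripts. Igfbp7 and Igfbp4 together made most binding protein RNA. Igfbp7 alone took 36.9% to 44.1% of it and Igfbp4 32.1% to 42.2%, while Igfbp2 took 1.52% to 3.41%. In coding transcripts only, Igfbp7 took 49.5% to 57.8%, Igfbp4 16.9% to 20.1% and Igfbp2 2.14% to 4.42%.

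Transcript usage within the members did not pass the test. It could be tested in 8 members, of which 0 were called by diffSpliceDGE (Simes adjusted p 0.999978 for each, the lowest unadjusted p being 0.394 for Igfbp5), beside 0.254% of the 9448 genes tested. Igf2r and Igfbp6 were not tested.

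Other genes of the pathway were read from 7 lists with 71 genes, 63 of them in the table. By edgeR 0 of the 63 passed, and by unadjusted p under 0.05 there were 10 higher and 1 lower, beside 6.03% and 4.23% of all genes. DESeq2 called 2 (1.4% of all genes). The median log2 fold change of the 63 was 0.16, against -0.0066 over all genes. Fitted values were higher in 44 of them and lower in 19, against 49.3% and 50.7% of all genes. All genes of a list were read from the same 6 libraries and do not vary independently, so the counts by list below are descriptions.

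Among receptor and adaptor genes, 8 of 11 had higher values (median 0.14). The insulin receptor Insr had 53.2 ± 8.19 CPM in the wild-type and 73.6 ± 10.1 CPM in the DdblGata1 group (SD, n = 3), a log2 fold change of 0.47 ± 0.17 (SE). Its groups overlapped, with 62.5 CPM in wild-type replicate 3 and 62.0 CPM in DdblGata1 replicate 4. The adaptor Irs1, which carries the signal from IGF1R, had 0.40 ± 0.16, and Sos1, which activates Ras, had 0.35 ± 0.14. Downstream, 16 of 20 genes had higher values (median 0.17). Pik3r1, the regulatory subunit of PI3-kinase, had 109 ± 19.5 CPM in the wild-type and 183 ± 24.8 CPM in the DdblGata1 group, without overlap. Its log2 fold change was 0.75 ± 0.18, and DESeq2 called it higher (adjusted p 0.038). The mTOR complex subunit Rictor and the transcription factor Foxo1 had 0.61 ± 0.21 and 0.33 ± 0.15.

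Proteases that cleave binding proteins, with their inhibitors, had higher values in 7 of 9 cases (median 0.36). Htra1, a secreted serine protease that can cleave binding proteins, had 199.9 ± 32.6 CPM in the wild-type and 329 ± 29.9 CPM in the DdblGata1 group (SD, n = 3). Its log2 fold change was 0.72 ± 0.17 (SE), and DESeq2 called it higher (adjusted p 0.0237). The metalloproteases Adam12 and Adam9 had 0.84 ± 0.33 and 0.38 ± 0.16. DESeq2 adjusted p-values ranged from 0.0499 to 0.272 for Pik3r1 and from 0.0273 to 0.209 for Htra1 when single libraries were left out, and the calls held in 1 and 2 of these 6 fits.

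In the growth hormone axis 5 of 6 genes had higher values (median 0.17), led by Cish, a feedback inhibitor of cytokine receptors, at 0.78 ± 0.33 (SE). The groups overlapped for Cish, with 25.3 CPM in wild-type replicate 3 and 19.9 CPM in DdblGata1 replicate 4. The kinase Jak2 (0.27 ± 0.16) and Stat5b (0.18 ± 0.15) followed. The list of RNA-binding and imprinted regulators had 5 of 8 higher (median 0.25). Igf2bp2, which binds Igf2 mRNA, had 32.2 and 47.8 CPM without overlap (0.57 ± 0.17), the chromatin protein Hmga1 had 5.91 and 3.23 CPM (-0.87 ± 0.36), and the proteoglycan Dcn had 0.36 ± 0.23. Other binding partners had 2 of 7 higher (median -0.051), with 0.31 ± 0.39 for Vtn, -0.14 ± 0.18 for Itga5 and -0.086 ± 0.16 for Itgav. Of the other ligand and binding protein genes, Igfbp1 and 4 more were not in the table, Igfals had 0.42 ± 0.54 and Igfbpl1 -0.90 ± 0.60.

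**Figure D5:**
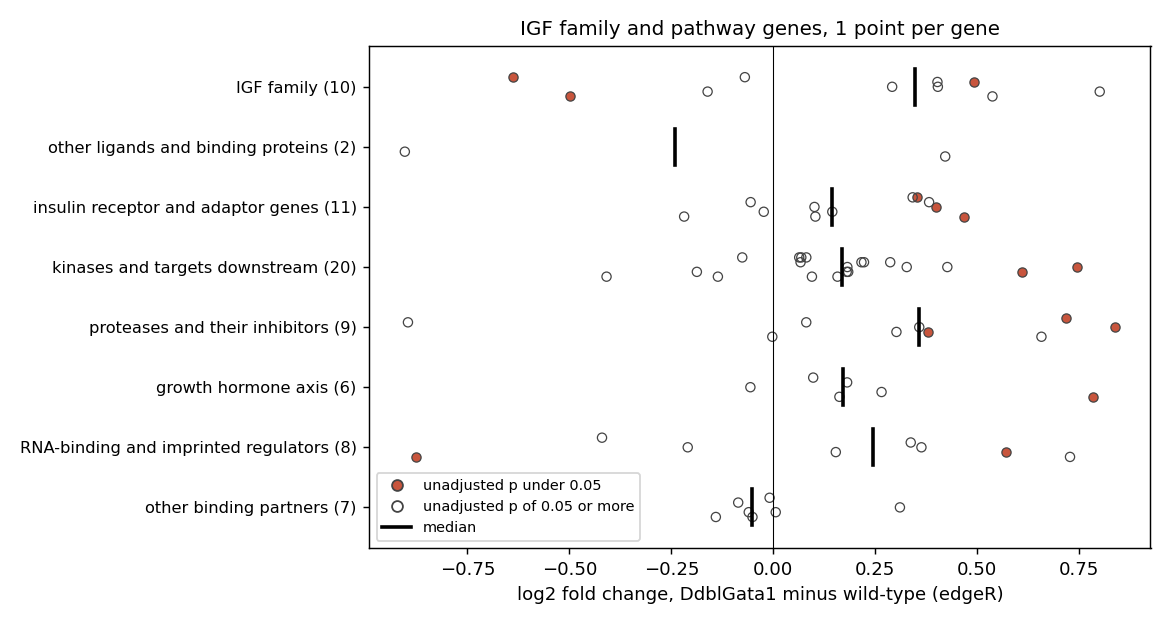
Fitted log2 fold change (DdblGata1 minus wild-type) of each IGF family gene and each measured gene of the 7 pathway lists, with list sizes in parentheses, filled points for an unadjusted edgeR p under 0.05 and a bar at each median. The filled points of the lists are 10 above 0 and 1 below, and none passed in edgeR after adjustment over all genes.

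The genes with the pattern closest to 3 of the members were sought by Pearson correlation of log2 CPM over the 6 libraries, among 9567 genes with a mean of at least 10 CPM. The closest to Igf1 were Trove2 (r = 0.994), Flrt2 (0.992) and Klf3 (0.991). The closest to Igf2 were Rcan3 (0.994), Abhd5 (0.992) and S100a6 (0.991), and to Igfbp5 they were Lbp (0.999), Tmed2 (0.996) and Pard3b (0.995). Correlations over 0.95 were reached by 98, 100 and 125 genes for Igf1, Igf2 and Igfbp5. These values describe 6 libraries of 2 genotypes that also differ in their marker sums, and were not tested.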

How the data were processed

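Bulk RNA-seq libraries of 6 sorted fibroblast samples were compared by genotype, 3 per group. Per the submitters' processing notes, the builds were mm10 and GRCm38.p6 and the tools kallisto, DESeq2, R 4.2.2 and bcl2fastq 2.2, with no step named for each. Values of the deposited gene table are whole-number estimated counts. Of these, 99.6% equalled length-scaled TPM rebuilt from the deposited transcript files within 1% plus 1 count, and 26.2% equalled plain sums. In the deposited transcript files the authors give estimated counts (expected counts), TPM and, as other values, transcript lengths. The deposited sheet of samples adds each library's size factor (a ratio) and 2 surrogate variables (each a score).

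Genes were tested with edgeR 4.0.16 in R 4.3.3 (TMM, filterByExpr, robust quasi-likelihood, Benjamini-Hochberg over 15238 genes at 0.05). CPM are TMM-scaled. Transcript usage was tested with diffSpliceDGE and the Simes method on rounded transcript counts. Alternatives used DESeq2 1.42.0, limma 3.58.1, other scalings, filters, covariates and the removal of each library. GENCODE M21 placed 113580 of 115270 transcripts. Of each pathway list the genes with the smallest edgeR p, up to 3, are named, and each gene that DESeq2 called. The protease inhibitors Stc1 and Stc2 are named in addition. The members and lists were chosen with earlier results of these data known.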

Additional observations from a re-analysis of the deposited data

How the results depend on the processing

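All 22 alternatives per gene gave 220 fold changes for the 10 members, of which 212 kept both direction and side of the threshold, 2 passed it and 6 changed direction. The 212 include the fit with no filter on low counts, which equals the main fit because the filter removed no gene, so its values could not differ. The 2 that passed were Igf2 (1.27 on the log2 scale) and Igfbp2 (-0.84), by DESeq2 without wild-type replicates 3 and 4, each the 1 member then called. The 6 that changed direction were Igfbp4 and Igfbp7, whose values were near 0: without DdblGata1 replicate 10 they were 0.011 and 0.028 by edgeR and 0.018 and 0.034 by DESeq2, and with the surrogate variables Igfbp7 had 0.021 by edgeR and 0.011 by DESeq2. Without single libraries edgeR gave -0.49 to 0.011 for Igfbp4 and -0.25 to 0.028 for Igfbp7. Other values kept their direction but moved by over 1.5 times. With the surrogate variables in edgeR, Igfbp5 went from 0.29 to 0.074, Igf1r from 0.40 to 0.26, Igfbp6 from 0.40 to 0.26 and Igfbp4 from -0.16 to -0.10, and DESeq2 with them gave 0.064, 0.25 and 0.25 for the first 3 and 0.53 for Igf2 (0.80 in edgeR without them). Plain transcript sums gave -0.054 for Igfbp4, and log2(TPM + 1) in limma gave -0.0064 for Igfbp7. Over all genes, the 0 calls of edgeR became 214 by DESeq2 and 449 by DESeq2 with the surrogate variables. Without single libraries edgeR called 0 to 1 genes (1 without DdblGata1 replicate 4) and DESeq2 43 to 1025 (106, 239 and 165 without wild-type replicates 1, 3 and 4, and 1025, 84 and 43 without DdblGata1 replicates 4, 9 and 10). The cause was not tested. Alternatives with plain transcript sums, DESeq2 with surrogate variables or without single libraries, and coding transcripts only were chosen after the data were seen. Of the 9 neighbouring pairs by level, 3 to 4 kept their order in every library under all alternatives run. Among these, CPM per kilobase could hardly change the order, since it divides out the lengths by which the deposited counts were scaled. The pairs were those of each alternative's own order, which could differ from the main one. In coding transcripts only, Igfbp6 ranked 5 and Igfbp5 ranked 6, the reverse of their order over all transcripts. No paired analysis was possible, because the labels link no wild-type library with a DdblGata1 library.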
